A study of Mus musculus with 2 samples.

Results

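Serum amyloid A, orosomucoid, lipocalin 2, haptoglobin and hemopexin genes encode plasma proteins that the liver secretes, and 10 of them were followed in liver RNA of mice given acetoaceto-o-toluidide (AAOT), an aromatic amide. The genes were chosen by symbol, Saa1, Saa2, Saa3, Saa4, Orm1, Orm2, Orm3, Lcn2, Hp and Hpx, and all 10 were among the 15526 genes of the deposited table. The AAOT group received 0.3% AAOT for 4 weeks and the control group 0%. All animals were female NOG-TKm30 mice of 22 weeks, and each group gave 1 library made from the mixed liver RNA of 3 mice. NOG mice lack mature T, B and NK cells, and the TKm30 transgene, a mutant herpesvirus thymidine kinase driven in liver by the mouse transthyretin enhancer and promoter, was carried by both groups. The labels name C57BL as well as NOG for the strain, and no source used here states the route of AAOT dosing.

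Most of these proteins belong to the acute phase response, in which interleukin-6 and interleukin-1 act on hepatocytes through the factors STAT3, C/EBP and NF-kB and raise secretion of defence proteins within hours. In mice Saa1 and Saa2 are the strongly inducible serum amyloid genes, whereas Saa4 is expressed constitutively and Saa3 is made largely by macrophages and other cells outside the hepatocyte. Orosomucoids, also called alpha-1-acid glycoproteins, bind drugs in plasma, Lcn2 withholds bacterial siderophores, haptoglobin binds free haemoglobin and hemopexin binds free haem.

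The promoters of 3 neighbouring Saa genes and of Lcn2 are shown because Saa1, Saa2 and Lcn2 had the lowest AAOT/control ratios of the 10 genes, while Saa4 lies in the same cluster and differed little. Each line gives the 250 bases before the transcription start that the RefSeq promoter table uses on GRCm38.p6, read 5′ to 3′ in the direction of the gene. That start is the outer end of the gene for Saa2, Saa4 and Lcn2, but lies 201 bases inside the RefSeq gene span of Saa1. Capitals mark matches to the C/EBP letters TTNNGNAA and, in Lcn2, also a match to the glucocorticoid receptor element, searched on both strands.
Saa1 promoter, chr7:46742981-46743230, minus strand: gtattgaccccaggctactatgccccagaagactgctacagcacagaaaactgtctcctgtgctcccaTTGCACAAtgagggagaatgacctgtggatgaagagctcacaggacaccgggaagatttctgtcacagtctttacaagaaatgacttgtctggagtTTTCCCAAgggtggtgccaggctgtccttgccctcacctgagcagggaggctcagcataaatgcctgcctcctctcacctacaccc
Saa2 promoter, chr7:46751583-46751832, plus strand: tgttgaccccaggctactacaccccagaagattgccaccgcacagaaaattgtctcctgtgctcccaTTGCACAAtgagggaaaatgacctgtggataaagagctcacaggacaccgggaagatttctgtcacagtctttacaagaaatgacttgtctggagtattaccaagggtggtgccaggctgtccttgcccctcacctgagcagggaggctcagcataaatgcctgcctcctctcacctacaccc
Saa4 promoter, chr7:46732604-46732853, minus strand: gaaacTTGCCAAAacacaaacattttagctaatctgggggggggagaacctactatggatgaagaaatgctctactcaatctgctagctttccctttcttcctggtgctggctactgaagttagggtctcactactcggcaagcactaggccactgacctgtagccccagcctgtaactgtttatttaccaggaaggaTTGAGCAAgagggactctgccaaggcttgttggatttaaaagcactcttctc
Lcn2 promoter, chr2:32387740-32387989, minus strand: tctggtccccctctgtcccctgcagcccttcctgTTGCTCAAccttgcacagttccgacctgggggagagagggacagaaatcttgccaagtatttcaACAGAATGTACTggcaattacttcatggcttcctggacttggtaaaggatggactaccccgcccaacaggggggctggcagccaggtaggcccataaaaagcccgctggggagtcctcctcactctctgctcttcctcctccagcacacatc
The Saa1 and Saa2 promoters were 95.6% identical, with 11 differing bases and 1 gap base over 249 aligned bases, and were 54.3% and 59.1% identical to that of Saa4. Both held TTGCACAA, at 182 to 175 bases before the table's start in Saa1 and at 183 to 176 bases before it in Saa2. A second match, TTTCCCAA at 86 to 79 bases, was found in Saa1 and not in Saa2. The C/EBP letters occurred in 8 of the 8 promoters available, those of all the genes but Orm1 and Hp, and in 36.9% of 32851 mouse promoters of the same length. The promoters of Saa1 and Saa2, and those of Orm2 and Orm3 with 89.0% identity, are close copies, so these 8 are not independent. The table's start also lies inside the gene span of Orm3, by 89 bases, and of Saa3, by 3939 bases. The letters TTCNNNGAA (STAT), CTGGGAA (the IL-6 type II element) and the NF-kB element occurred in 0 of the 8, against 7.02%, 9.10% and 3.86% of all promoters. The glucocorticoid receptor element occurred in 1 of the 8, Lcn2, and in 1.08% of all promoters. A match of letters is a description of the sequence and does not show a bound site. A missing match to these fixed letters does not show that the factor has no site, inside this window or beyond it.

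Levels were taken as CPM, reads scaled to library size, on the authors' scale. Every value was a whole multiple of the value of 1 read, which gave 16528533 reads in the AAOT pool and 18801241 reads in the control pool. Folds are plain ratios of CPM, and the interval beside each is an exact 95% interval (Clopper-Pearson) for counting error, which treats reads as independent molecules. Counts of genes past 2-fold or 1.5-fold instead use the log2 ratio with 1 CPM added to each level. With 1 library per group the spread between mice is unknown and there is no p-value, so every difference described is that of these 2 pools. In bulk RNA, fewer cells of a type and less RNA per cell cannot be told apart. Hepatocyte markers were the most abundant of the cell type marker lists, with 8 of 8 listed. They summed to 87577 CPM in the AAOT pool and 100933 CPM in the control pool. Alb alone gave 50830 CPM in the AAOT pool and 57688 CPM in the control pool. Of the 8, 6 had a log2 ratio of CPM + 1 below 0, against 53.6% of all genes with a mean of at least 10 CPM, and their median was -0.27. Alb, Ttr, Apoa1 and Fgb are also in the acute phase lists described below, so these lists are not independent. Outside those lists, Cps1 (0.26) and Ass1 (0.05, named after its value was seen) were above 0. Apob (-0.12) and Cyp2e1 (-0.45) were below 0. Among all genes the median log2 ratio was -0.02 for the 7761 genes with a mean of at least 10 CPM, on the same scale.

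The inducible serum amyloids were far lower in the AAOT pool. Saa1 (chr7:46740497-46743181, GRCm38), which encodes an apolipoprotein of high-density lipoprotein, was at 23.5 CPM in the AAOT pool, from 393 reads, and at 173 CPM in the control pool, from 3217 reads. It was 7.38-fold lower in the AAOT pool (6.64 to 8.21). Its near copy Saa2 (chr7:46751833-46754313) was at 8.25 CPM in the AAOT pool, from 138 reads, and at 105 CPM in the control pool, from 1946 reads. It was 12.7-fold lower (10.7 to 15.2), the lowest log2 ratio of the 7761 genes with a mean of at least 10 CPM, and Saa1 ranked 3 from the bottom. Saa2 reached that mean through the control pool alone, so its rank follows in part from the requirement. The spliced principal transcripts of the pair are 94.4% identical, and 85.2% of the 50-base stretches of Saa1 and 86.7% of those of Saa2 occur in no other gene, so a part of the reads could be assigned to either. Summed, the pair was at 31.7 CPM in the AAOT pool and 278 CPM in the control pool, 8.76-fold lower (8.01 to 9.60), a value that does not depend on how reads were split between them. Within each pool, Saa2 CPM per Saa1 CPM was 0.351 in the AAOT pool and 0.605 in the control pool, and the ratio of these was 0.581 (0.471 to 0.713), a comparison free of scaling between pools. RefSeq lists each symbol of this pair as an older name of the other, and no source used here names the authors' annotation, so which copy stands behind which symbol rests on the deposited names.

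The other members of the family differed much less. Saa4 (chr7:46727992-46732603), the constitutive serum amyloid, was at 131 CPM in the AAOT pool and 163 CPM in the control pool, 1.24-fold lower (1.18 to 1.31). Saa3 (chr7:46711998-46719615) was close to the detection limit in both pools, with 21 reads (1.25 CPM) in the AAOT pool and 31 reads (1.67 CPM) in the control pool. Its ratio of 0.752 has an interval of 0.411 to 1.35 that includes equality, so no difference was detectable at this depth. Saa4 took 79.9% of Saa family reads in the AAOT pool (78.4 to 81.4, exact binomial) and 36.9% in the control pool (35.8 to 37.9). Saa1 and Saa2 took 14.3% and 5.02% of family reads in the AAOT pool, against 39.1% and 23.7% in the control pool. All 4 genes together were 2.70-fold lower (2.58 to 2.82), at 164 CPM in the AAOT pool and 443 CPM in the control pool.

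**Figure D1:**
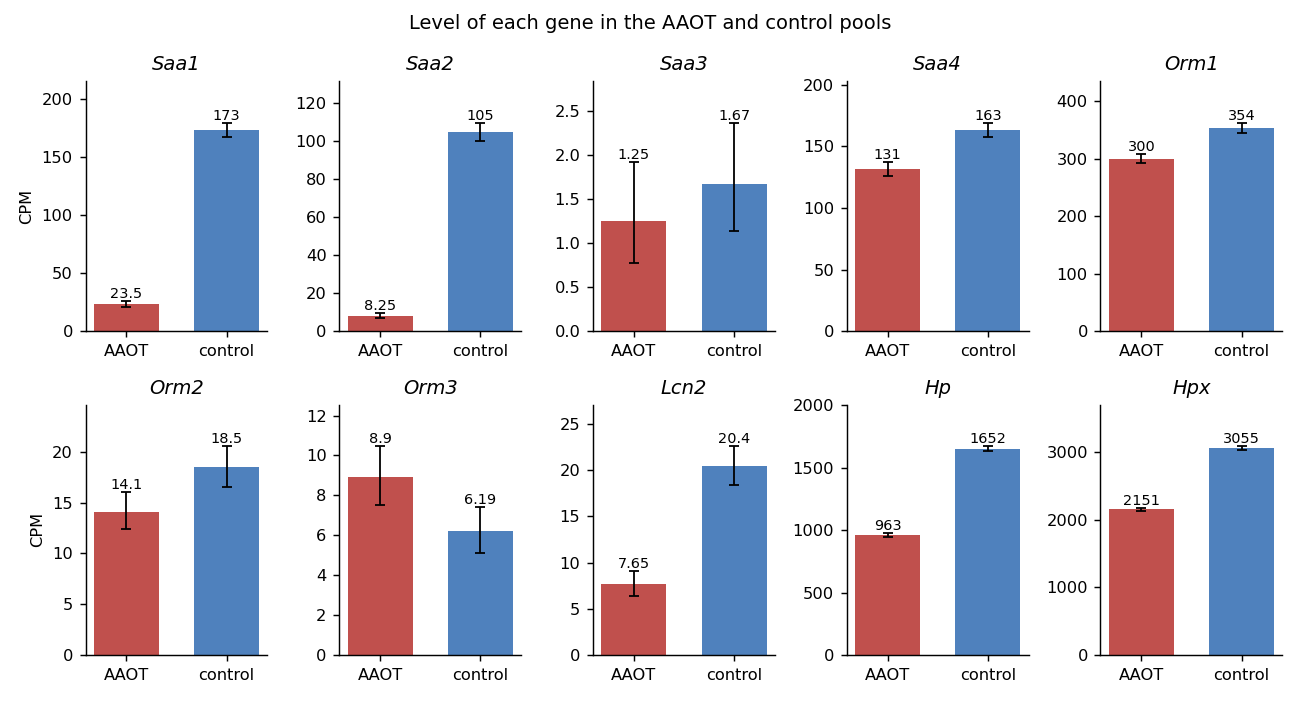
Level of each of the 10 genes in CPM, 1 panel per gene with its own axis from 0, the AAOT pool in red and the control pool in blue; error bars are exact 95% counting intervals. Saa1, at 23.5 CPM in the AAOT pool and 173 CPM in the control pool, and Saa2, at 8.25 CPM in the AAOT pool and 105 CPM in the control pool, differ most, and Orm3 is the gene with the higher bar in the AAOT pool.

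The orosomucoids differed by less than 1.5-fold, Orm1 and Orm2 being lower and Orm3 higher in the AAOT pool. Orm1 (chr4:63344556-63348163), which supplied most orosomucoid reads, was at 300.2 CPM in the AAOT pool and 354 CPM in the control pool, 1.18-fold lower (1.14 to 1.22). Orm2 (chr4:63362449-63365877) was at 14.1 CPM in the AAOT pool, from 236 reads, and 18.5 CPM in the control pool, from 343 reads, 1.31-fold lower (1.11 to 1.55). Orm3 (chr4:63356069-63359506) was the single gene of the 10 with a higher level in the AAOT pool, at 8.90 CPM from 149 reads, against 6.19 CPM from 115 reads in the control pool, a ratio of 1.44 (1.12 to 1.85). Orm3 per Orm2 CPM was 0.631 in the AAOT pool and 0.335 in the control pool, and the ratio of these was 1.88 (1.39 to 2.56). The Orm2 and Orm1 ratios could not be distinguished, since Orm2 per Orm1 differed between pools by a factor of 0.901 (0.757 to 1.07). Orm1 took 92.9% of the orosomucoid reads in the AAOT pool and 93.5% in the control pool. Of the 50-base stretches of their transcripts, 79.6% of Orm1, 77.3% of Orm2 and 96.4% of Orm3 occur in no other gene. The sum of the 3 genes was 1.17-fold lower in the AAOT pool (1.13 to 1.21).

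**Figure D2:**
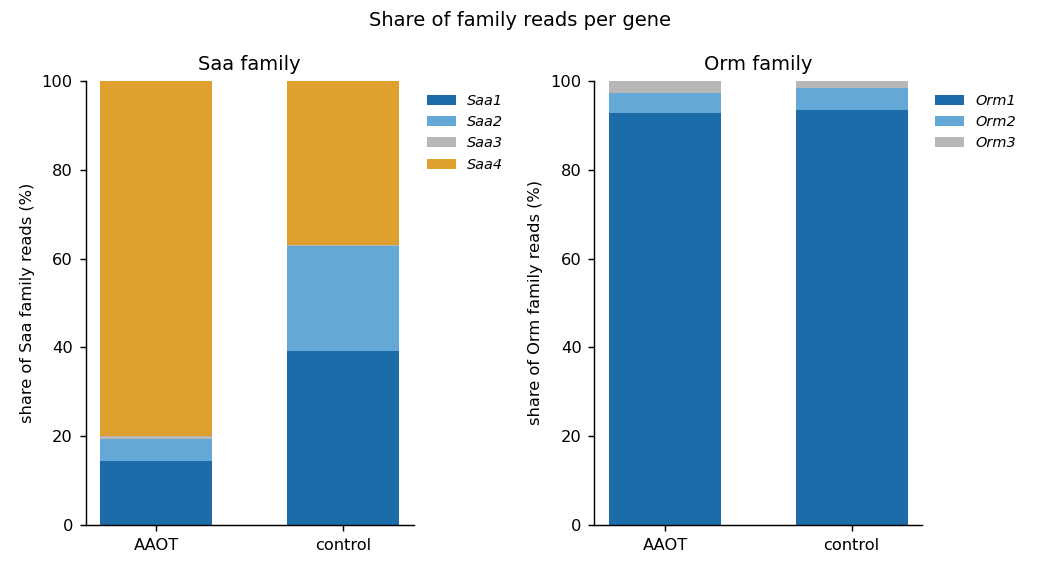
Share of Saa family reads (left) and of Orm family reads (right) taken by each gene, in percent, in the AAOT and control pools. Saa4 takes 79.9% of Saa reads in the AAOT pool and 36.9% in the control pool, while Orm1 takes 92.9% of Orm reads in the AAOT pool and 93.5% in the control pool.

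Lcn2 (chr2:32384637-32387739), the siderophore-binding lipocalin, was at 7.65 CPM in the AAOT pool, from 128 reads, and 20.4 CPM in the control pool, from 379 reads. It was 2.67-fold lower (2.18 to 3.29), between the Saa1 and Saa2 pair and the haptoglobin gene in size. Lcn2 per Saa1 CPM was 0.326 in the AAOT pool and 0.118 in the control pool, so Saa1 was lower by a further factor of 2.76 (2.19 to 3.48). Neutrophils also store Lcn2, and their markers were low in both pools, with 9 of 14 listed. They summed to 5.56 CPM in the AAOT pool and 4.69 CPM in the control pool. Lcn2 itself was low as well, and its cell of origin was not tested. Of the 9, 1 had a counting interval wholly above equality and 0 wholly below it, against 12.7% and 13.1% of listed genes. That gene, Cxcr2, named after its value was seen, had a ratio of 1.82 (1.16 to 2.89). The granule and surface genes Ly6g, Ltf, Camp, Mmp8 and Ctsg were not among the listed genes. Macrophage markers, 12 of 12 listed, summed to 443 CPM in the AAOT pool and 426 CPM in the control pool. Above the 10 CPM level 0 of 9 were past 2-fold, where only 0.425% of all genes were lower and 0.773% higher. Of these 9 the farthest from equality was Adgre1, which encodes F4/80, at 25.9 CPM in the AAOT pool and 21.1 CPM in the control pool. The counting interval lay wholly above equality for 3 of the 12 markers, against 12.7% of listed genes, and wholly below it for 0, against 13.1%. Of the 3, Marco, below the 10 CPM level and named after its value was seen, had a ratio of 1.57 (1.19 to 2.06). Of 6 adipocyte markers 1 was listed, Fabp4.

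Haptoglobin and hemopexin, which clear haemoglobin and haem, were the most abundant of the 10 transcripts and were lower in the AAOT pool by smaller factors. Hp (chr8:109575128-109579172) was at 963 CPM in the AAOT pool and 1652 CPM in the control pool, 1.72-fold lower (1.68 to 1.75). Hpx (chr7:105591611-105600116) was at 2151 CPM in the AAOT pool and 3055 CPM in the control pool, 1.42-fold lower (1.40 to 1.44). Within each pool, Hp per Hpx CPM was 0.448 in the AAOT pool and 0.541 in the control pool, and the ratio of these was 0.828 (0.809 to 0.847). The 50-base stretches of Hp, Hpx and Lcn2 occur in no other gene (100%), so reads shared with copies do not touch these values. Because of their abundance, Hp and Hpx carried most of the summed change, and the 10 genes together took 0.365% of reads in the AAOT pool and 0.548% in the control pool.

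Per kilobase of the longest GENCODE transcript, the levels of Hpx were 1435 CPM in the AAOT pool and 2038 CPM in the control pool. Those of Hp were 716 CPM in the AAOT pool and 1229 CPM in the control pool, and those of Orm1 were 387 CPM in the AAOT pool and 457 CPM in the control pool. Hpx, Hp and Orm1 held ranks 1, 2 and 3 in both pools, and Saa3 rank 10, also per kilobase of coding length, of the shortest transcript and of the principal transcript. The place of the other serum amyloids depended on the length used, since the longest transcript of Saa1 retains an intron. Per kilobase of the principal spliced transcript, Saa1 was at 38.6 CPM in the AAOT pool and 284 CPM in the control pool, and Saa4 at 62.7 CPM in the AAOT pool and 77.9 CPM in the control pool. On that scale Saa1 stood below Saa4 in the AAOT pool and above it in the control pool. Per kilobase of the longest transcript it stood below Saa4 in both.

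Read against all genes, 3 of the 10 (Saa1, Saa2 and Lcn2) were at least 2-fold lower in the AAOT pool, where 0.386% of the 15526 listed genes were. None was at least 2-fold higher (0 of 10), where 0.605% of listed genes were. A log2 ratio below 0 was found for 9 of the 10, against 50.3% of listed genes. At least 1.5-fold lower were 4 of the 10, the same genes and Hp, against 1.60% of listed genes. The added 1 CPM keeps some low genes out of these counts, such as Apbb1, 2.70-fold lower by plain ratio. The shares of listed genes by plain ratio were not counted and would be larger. The counting interval lay wholly below equality for 8 of the 10, against 13.1% of listed genes, and wholly above it for 1, Orm3, against 12.7%. Such intervals narrow with abundance, so these shares compare genes of unequal read numbers. With the 10 CPM level required, 8 of the 10 remained, of which 3 were at least 2-fold lower, where 0.425% of 7761 genes were. Saa2 and Lcn2 reached that level through the control pool alone, so this last count follows in part from the requirement. The median log2 ratio was -0.44 over all 10 genes and -0.64 over these 8, against -0.002 for all listed genes and -0.02 for those above the level.

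**Figure D3:**
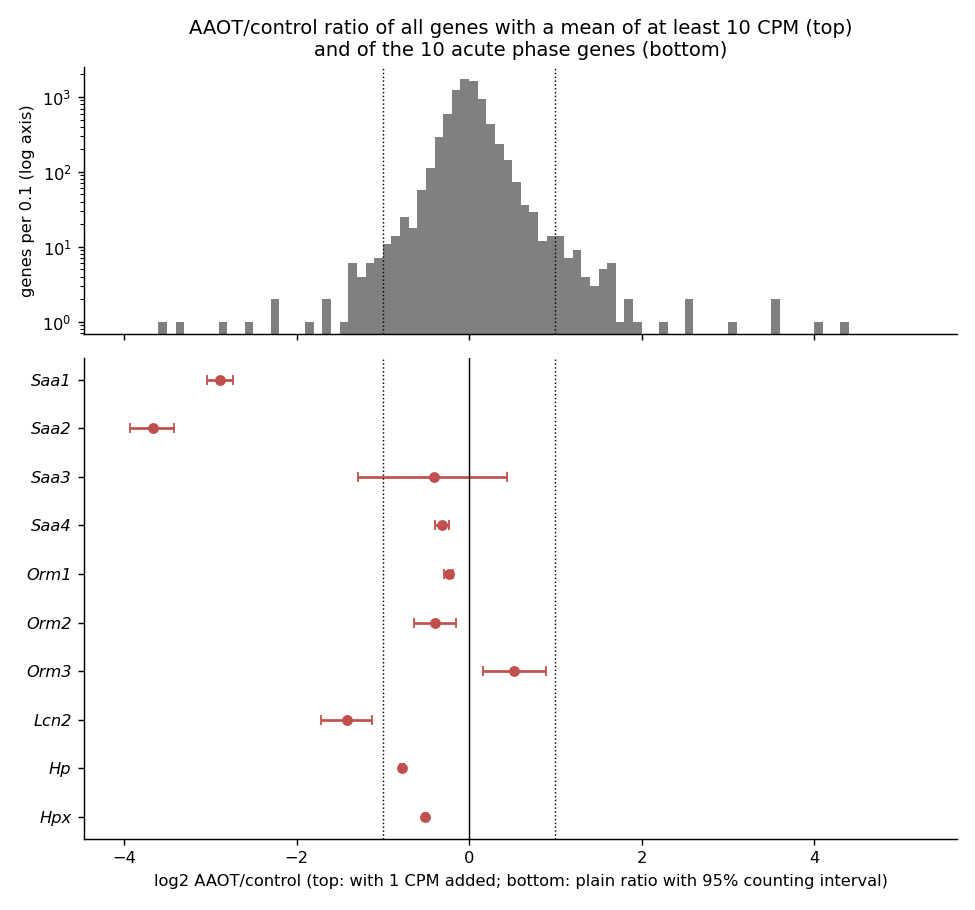
Top, number of genes (log axis) per 0.1 of the log2 AAOT/control ratio of CPM + 1 for the 7761 genes with a mean of at least 10 CPM. Bottom, log2 of the plain AAOT/control ratio of each of the 10 genes with its exact 95% counting interval, with dotted lines at 2-fold, on which Saa2, Saa1 and Lcn2 lie left of the lower line and Orm3 right of 0.

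The Saa difference was uneven along the chromosome. On chromosome 7 the order is Saa3, Saa4, Saa1 and Saa2, between Saal1 on one side and Hps5 on the other. Saal1, the listed gene before Saa3, was at 4.00 CPM in the AAOT pool and 5.71 CPM in the control pool, 1.43-fold lower with a ratio interval of 0.509 to 0.961. Hps5, the gene after Saa2, had 335 reads in the AAOT pool and 304 reads in the control pool, a ratio of 1.22 (1.04 to 1.43), and Gtf2h1 beyond it had a ratio of 0.928 (0.808 to 1.06). Thus the 2 genes on the far side of Saa2 did not share its ratio. In the Orm cluster on chromosome 4 the order is Orm1, Orm3 and Orm2, and the flanking collagen gene Col27a1 was at 22.2 CPM in the AAOT pool and 12.8 CPM in the control pool, a ratio of 1.73 (1.47 to 2.05). Akna, the gene after Orm2, had a ratio of 1.01 (0.708 to 1.45). Beside Lcn2, Ptges2 had a ratio of 1.01 (0.868 to 1.17), and Slc25a25, next to it, was 1.63-fold lower. Beside Hp, Txnl4b had a ratio of 0.964 (0.790 to 1.18), and beside Hpx, Trim3 had a ratio of 1.18 (0.956 to 1.45). The other neighbours listed had counting intervals that include equality, except Apbb1 near Hpx, with 6 reads in the AAOT pool and 18 reads in the control pool.

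**Figure D4:**
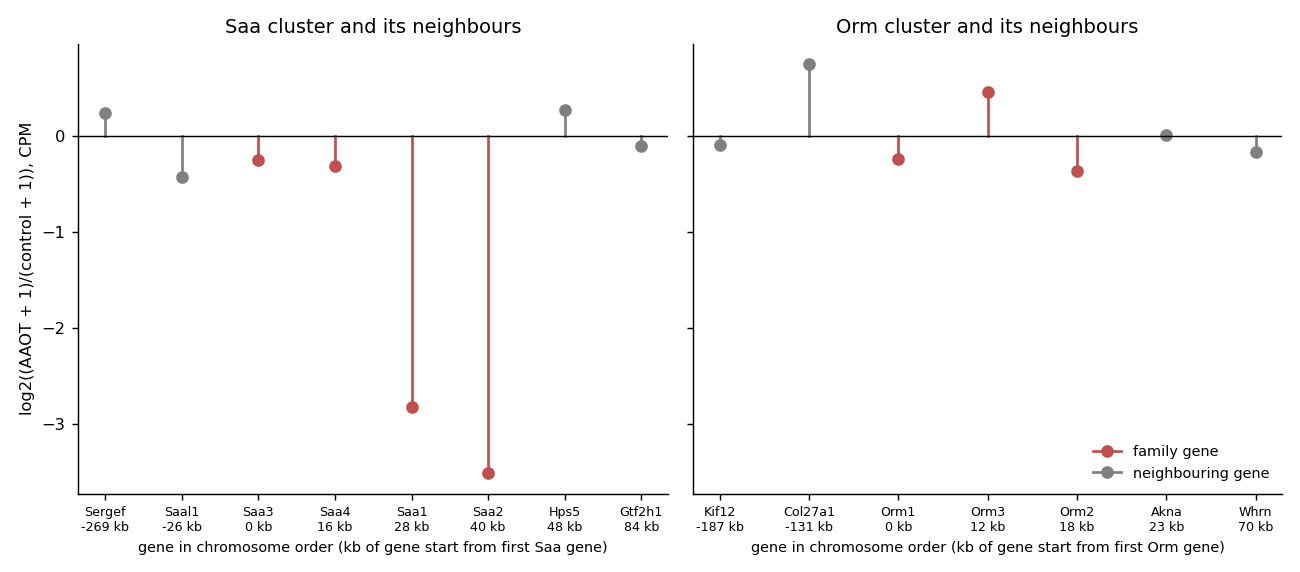
Log2 AAOT/control ratio of CPM + 1 for each gene of the Saa cluster (left) and the Orm cluster (right) in red, with the 2 nearest listed genes on each side in grey, in chromosome order; labels give the distance of each gene start from the first family gene in kb. Saa1 (-2.83) and Saa2 (-3.52) stand apart from Saa3 (-0.24), Saa4 (-0.31) and the neighbouring genes.

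Most other positive genes of the acute phase response, outside the 10, were lower, by less than 2-fold. The largest of these factors, those of Lrg1 and Itih3, were close to that of Hp. Of 31 positive acute phase genes 30 were listed and 25 reached a mean of 10 CPM. Of these 25, 20 had a log2 ratio below 0, against 53.6% of all genes above that level. The other 5 were above 0, and the median was -0.25. Past 2-fold, 0 were lower and 2 were higher, against 0.773% higher among all genes above that level, the 2 being the metallothionein genes Mt1 and Mt2, whose products bind zinc and copper. Mt1 was at 35.3 CPM in the AAOT pool and 15.1 CPM in the control pool, 2.33-fold higher (2.02 to 2.70), and Mt2 was 2.62-fold higher (2.09 to 3.30). Mt2, at 15.7 CPM in the AAOT pool and 5.98 CPM in the control pool, reached a mean of 10 CPM through the AAOT pool alone, so the count of 2 follows in part from that requirement. Lrg1, a secreted leucine-rich glycoprotein induced with the acute phase, was at 190 CPM in the AAOT pool and 339 CPM in the control pool, 1.78-fold lower. Itih3, an inter-alpha-trypsin inhibitor chain, was at 640 CPM in the AAOT pool and 1078 CPM in the control pool, 1.68-fold lower. The fibrinogen chain genes were alike, with Fga 1.37-fold, Fgb 1.43-fold and Fgg 1.40-fold lower. The complement genes C4b and C3 were 1.45-fold and 1.19-fold lower, and ceruloplasmin, Cp, was 1.04-fold lower. The other genes of this list at 1000 CPM or more, Cfb, Itih4, Serpina1a, Serpina1b, Vtn and Plg, had log2 ratios between -0.32 (Itih4) and -0.07 (Serpina1b). C-reactive protein, Crp, which in mice is only weakly inducible, was at 339 CPM in the AAOT pool and 281 CPM in the control pool, a ratio of 1.20 (1.16 to 1.25), and is named after its value was seen.

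Genes taken here as negative acute phase genes, those that an acute phase response lowers, were mostly lower as well. Of 16 such negative acute phase genes, 15 had a log2 ratio below 0, against 53.6% of all genes above 10 CPM, with a median of -0.22. None of the 16 passed 2-fold (0), where 0.425% of those genes were lower and 0.773% higher. Apoa1, the main apolipoprotein of high-density lipoprotein, was 1.63-fold lower, and Ahsg, which encodes fetuin-A, was 1.60-fold lower. The other abundant genes, Alb, Ttr, Trf, Rbp4, Apoa2, Apoh, Gc, Igf1 and Serpinc1, had log2 ratios between -0.49 (Igf1) and -0.10 (Serpinc1). Serpina6, the corticosteroid-binding globulin, was the exception, at 457 CPM in the AAOT pool and 331 CPM in the control pool, a ratio of 1.38 (1.33 to 1.43). The positive genes outside the 10 and the negative genes were shifted in the same direction by similar medians.

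Transcripts of the signalling that drives these genes mostly differed by small factors, with Socs3 apart. The activity of that signalling was not measured. Of 32 ligands, receptors, kinases and factors 27 were listed and 21 reached 10 CPM, with 14 below 0, against 53.6% of all genes above that level, and a median of -0.07. Past 2-fold there were 0, where 0.425% of all genes above that level were lower and 0.773% higher. Of the 27, 10 had a counting interval wholly below equality and 5 wholly above it, against 13.1% and 12.7% of listed genes. Il6, Tnf, Osm, Il22 and Il11 were not among the listed genes, and Il1b, chosen after its values were seen, had 24 reads in the AAOT pool and 31 reads in the control pool. Stat3, the factor activated by interleukin-6, was at 145 CPM in the AAOT pool and 141 CPM in the control pool, a ratio of 1.03 (0.976 to 1.09), and is named after its value was seen. The interleukin-6 receptor Il6ra had a ratio of 1.26 (1.14 to 1.39) and the tumour necrosis factor receptor Tnfrsf1a one of 1.36 (1.25 to 1.48). The liver transcription factors Foxa2 and Creb3l3 had ratios of 0.763 (0.660 to 0.881) and 0.807 (0.776 to 0.840). Socs3, the feedback inhibitor of interleukin-6 signalling and itself a STAT3 target, fell just short of the level at a mean of 9.88 CPM and was picked out once its values were known. It was at 4.42 CPM in the AAOT pool, from 74 reads, and 15.3 CPM in the control pool, from 285 reads, 3.47-fold lower with a ratio of 0.288 (0.220 to 0.373).

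Receptors and ligands of the 10 proteins showed no common direction. Of 17 genes 9 reached 10 CPM, with 4 below 0, against 53.6% of all genes above that level, 5 above 0 and a median of 0.14. Cd163, the macrophage receptor for haptoglobin bound to haemoglobin, was at 22.2 CPM in the AAOT pool and 20.1 CPM in the control pool, a ratio of 1.11 (0.956 to 1.28), and is named after its value was seen. Lrp1, which takes up hemopexin bound to haem, was 1.15-fold lower (2169 CPM in the AAOT pool and 2490 CPM in the control pool). Heme oxygenase, Hmox1, had a ratio of 1.27 (1.11 to 1.45). Scarb1, a lipoprotein receptor that also binds serum amyloid A, was 1.37-fold lower, and the fatty acid receptor Cd36 had a ratio of 1.49 (1.33 to 1.67). Among haemoglobin genes, Hba-a1 was at 156 CPM in the AAOT pool and 161 CPM in the control pool and Hba-a2 at 158 CPM in the AAOT pool and 130 CPM in the control pool, while Hbb-bs, named after its values were seen, had 102 reads in the AAOT pool and 0 in the control pool. Hbb-bs has close copies, so the split of globin reads is uncertain. Of 7 erythroid markers 4 reached 10 CPM, with a median log2 ratio of 0.07. The haemoglobin genes are in both of these lists, so the lists are not independent.

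**Figure D5:**
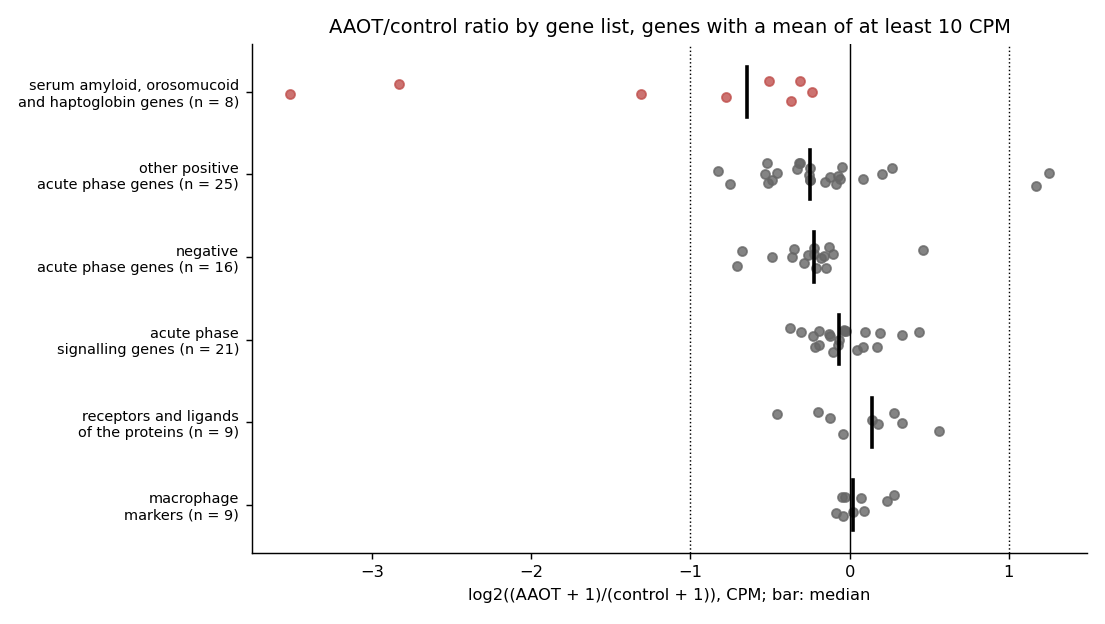
Log2 AAOT/control ratio of CPM + 1 for each gene with a mean of at least 10 CPM in 6 lists, the 10 acute phase genes in red (8 of them reach that level) and other lists in grey; black bars are medians and dotted lines mark 2-fold. Medians are -0.64 for the serum amyloid, orosomucoid and haptoglobin genes, -0.25 and -0.22 for other positive and for negative acute phase genes, -0.07 for signalling genes, 0.14 for receptors and ligands and 0.02 for macrophage markers.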

How the data were processed

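Liver RNA was sequenced in 2 libraries, 1 per group, each mixed from 3 mice, from 200 ng of total RNA after ribosomal RNA depletion, with directional libraries, per the labels' protocols. The authors deposited CPM per gene symbol, with 1 column per library matched by the code in its title. Tools listed without roles are edgeR, RSEM, Bowtie2 and Trimmomatic 0.38, with the build mm10, per the submitters' processing notes. The authors' CPM include a scaling factor per library, of 1.01 in the AAOT pool and 0.988 in the control pool. Whole reads were recovered from the steps of the CPM for 100% of values (relative tolerance 1e-06). The count model was not run, because 1 library per group gives no residual degrees of freedom.

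Log2 ratios are log2((AAOT + 1)/(control + 1)) in CPM, which understates changes of low genes. Differences of at least 2-fold were counted on this scale, among all listed genes and among those with a mean of at least 10 CPM. The precursor transcript Rn45s took 4.70% of reads in the AAOT pool and 3.89% in the control pool. The 10 genes and all lists were chosen with earlier results of these data known. Named are the 10 genes, their listed neighbours, and of each list up to 4 genes farthest from equality and those at 1000 CPM or more. Other genes are said to be named after their values were seen. Promoters are RefSeq's (GRCm38.p6), and positions RefSeq's on GRCm38, to which mm10 refers. Transcripts are GENCODE M21. The steps were tested on simulated reads. Computations used scipy 1.17.1, Biopython 1.88, matplotlib 3.10.9, pandas 2.3.3 and numpy 2.4.6 under Python 3.11.15. Alternatives were 5 scalings, 2 added constants, 3 floors, 2 sizes, summed copies and other gene lengths.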

Additional observations from a re-analysis of the deposited data

How the results depend on the processing

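The log2 ratios of Saa1, Saa2, Saa3, Saa4, Orm1, Orm2, Lcn2, Hp and Hpx stayed below 0 and that of Orm3 above 0 under all 5 scalings between columns and with 0.1 and 5 CPM added. Saa2 ranged from -3.65 to -3.05, Saa1 from -2.88 to -2.65 and Lcn2 from -1.40 to -1.01. Summed with Orm1 and Orm2, the ratio that holds Orm3 was -0.23, since Orm1 outnumbers it. The scalings moved the median of all genes by at most 0.05.

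Rescaled to equal totals, the medians were -0.21 for other positive acute phase genes, -0.19 for negative ones and -0.24 for hepatocyte markers. Without Rn45s they were -0.20, -0.18 and -0.22, and without the 20 most abundant genes that of hepatocyte markers was -0.26. Without Rn45s, without the 20 most abundant genes, with a 1 CPM floor and with no floor, 1 signalling gene was 2-fold lower, because Socs3 then passes the floor. With floors of 1 CPM and none, the median of the 10 genes was -0.44, that of other positive acute phase genes -0.16 and -0.14, and that of macrophage markers -0.0031, and 1 gene each of the receptor and erythroid lists, Hbb-bs in both, was 2-fold higher. With a 50 CPM floor the receptor median was -0.12 and 0 other positive acute phase genes were 2-fold higher. The count of such higher genes was 1 with 5 CPM added and 0 at 4-fold. At 1.5-fold, 2 other positive and 2 negative acute phase genes were lower, where 1.60% of all listed genes were without a floor. The 1 hepatocyte marker lower at that size, Apoa1, is also among the negative acute phase genes. Of the 10 genes, 3 were 2-fold lower under all 5 scalings, both added constants, floors of 1 CPM and none, and a floor of 20 reads chosen after seeing the data. With a 50 CPM floor 2 were, since Lcn2 falls below it, and at 4-fold 2 were lower, against 4 at 1.5-fold. No paired analysis was possible because each group has 1 library, and no library could be left out. The depth limits Saa3, with 21 reads in the AAOT pool and 31 reads in the control pool.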

Other observations

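Orosomucoids and Lcn2 belong to the lipocalins, a family of small carrier proteins. Other lipocalin genes, chosen after the values of the 10 genes were seen, were nearer to equality than Lcn2. Of 10 searched, 5 were listed and 4 reached 10 CPM. The retinol carrier Rbp4 was at 1952 CPM in the AAOT pool and 2278 CPM in the control pool, 1.17-fold lower. Ambp, which encodes alpha-1-microglobulin, was at 1609 CPM in the AAOT pool and 1752 CPM in the control pool, 1.09-fold lower. Apom, a lipoprotein constituent, had a ratio of 0.986 (0.938 to 1.04), and the complement lipocalin C8g one of 0.974 (0.937 to 1.01).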
